A study of Mus musculus with 2 samples.

Results

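Nuclear long noncoding RNAs were listed by symbol for a description in mouse embryonic eyecups: *Malat1*, *Neat1*, *Kcnq1ot1*, *Meg3*, *Rian*, *Mirg*, *Snhg11* and *Miat*. Of these 8 members, 7 had a row among the 31053 features counted. *Rian* was not analysed here. The members were chosen by symbol, with earlier results of these data known. Eyecups at E13.5, which hold retina, lens and blood, were dissociated and sequenced as 1 control library and 1 DKO library. Control eyecups were *Six3*+/-;*Six6*+/- littermates. DKO eyecups were *Six3*F/F;*Six6*-/-;α-Cre, so that *Six6* was deleted in all their cells and *Six3* only where α-Cre was active, which is the peripheral retina. They were picked by their GFP-positive rosettes, and each library came from the eyecups of 1 embryo. Both groups carried at least 1 *Six6* null allele, the *Six3* null allele of the controls came from germline Cre activity, and DKO retinas held cells with and without *Six3*. No feature counts Cre, and DKO cells of a class were pooled whether or not they had lost *Six3*. With 1 library for each genotype there were no replicates and no test. Ranges in parentheses are 95% exact intervals that cover counting error only, and the difference between the genotypes and the difference between the 2 libraries cannot be told apart.

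Most messenger RNAs leave the nucleus for translation, whereas these RNAs stay in it to a large extent. *Malat1* lies in nuclear speckles, the stores of splicing factors, and *Neat1* is the scaffold of paraspeckles, nuclear bodies that hold RNA-binding proteins. *Kcnq1ot1* and *Meg3* belong to imprinted clusters, in which 1 parental allele is expressed, and *Kcnq1ot1* silences neighbouring genes on the chromosome it is made from. *Miat*, also known as Gomafu, forms a nuclear body of its own in neurons.

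By GENCODE vM21 on GRCm38, *Malat1* (ENSMUSG00000092341, chr19:5795690-5802672, minus strand) and *Neat1* (ENSMUSG00000092274, chr19:5824708-5845478, minus strand) are neighbours that lie 22035 bases apart. Both long transcripts hold the same 3 short motifs in the same order near their 3′ ends, in an element that folds into a triple helix and protects the RNA end. An RNA that ends there carries no poly(A) tail, and the libraries were primed with oligo(dT), so UMIs (unique molecular identifiers, each a tag for 1 captured RNA molecule) need not count all RNA of either gene. The element is shown because these neighbours share it and yet ran in opposite directions from progenitors to ganglion cells. The stretch is printed 5′ to 3′ from the GENCODE transcripts with the U-rich motifs TTTCTTTT and TTTGCTTTT and the A-rich motif AAAGCAAAA in capitals.
Malat1: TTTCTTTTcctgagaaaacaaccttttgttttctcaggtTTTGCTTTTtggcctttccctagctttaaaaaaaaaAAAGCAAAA
Neat1: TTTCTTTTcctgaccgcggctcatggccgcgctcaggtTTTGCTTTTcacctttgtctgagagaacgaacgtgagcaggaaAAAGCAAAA
The *Malat1* stretch covers positions 6608 to 6691 of a transcript of 6983 bases and the *Neat1* stretch covers positions 20682 to 20771 of a transcript of 20771 bases. These letters were chosen with both genes in view. On the forward strand, 2 of 141767 annotated transcripts held the 3 motifs in this order, those of *Malat1* and *Neat1*.

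*Kcnq1ot1* (ENSMUSG00000101609, chr7:143203458-143296549, minus strand) is a transcript of 93092 bases that lies inside *Kcnq1* (chr7:143106362-143427042, plus strand). The sources used here do not give the strand setting of the counting. Whether any reads from this stretch of *Kcnq1* were counted as *Kcnq1ot1* was not tested. Oligo(dT) primers can bind runs of A inside a transcript, and *Kcnq1ot1* held 5 runs of at least 15 A. *Meg3* held 2 such runs in the longest of its transcripts, and the other 5 measured members held none in theirs. Of all 141767 transcripts, 1.95% held such a run. That share includes runs at the transcript end, which were left out for the members. Length was not allowed for, and a transcript of 93092 bases has more room for a run than a short one. The longest run of *Kcnq1ot1*, 41 bases at positions 69565 to 69605 of the transcript, is shown in capitals with 40 bases on each side, since this gene stood out in the low-RNA cells described below. Where the reads fell was not analysed here.
Kcnq1ot1: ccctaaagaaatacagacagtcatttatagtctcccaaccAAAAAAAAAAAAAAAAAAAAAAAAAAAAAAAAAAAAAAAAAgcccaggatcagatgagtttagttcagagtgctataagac

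*Meg3* (ENSMUSG00000021268, chr12:109541001-109571726), *Rian* (ENSMUSG00000097451, chr12:109603940-109661716) and *Mirg* (ENSMUSG00000097391, chr12:109729764-109749460) follow each other on the plus strand of the *Dlk1*-*Dio3* imprinted cluster. Of 1005 listed miRNA hairpins, 1 lies inside *Meg3*, 3 lie inside *Rian* and 14 lie inside *Mirg*, which is a host gene of miRNAs. *Snhg11* (ENSMUSG00000044349, chr2:158375638-158386145, plus strand), a snoRNA host gene, is annotated as protein coding. *Miat* (ENSMUSG00000097767) lies at chr5:112213228-112229395 on the minus strand.

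The control library held 9822 kept cells and the DKO library 12146, with medians of 7620 and 5879 UMIs and totals of 85589515 and 85173276 UMIs over all cells, kept or not. The 2 libraries shared 20 cell barcodes among kept cells. In naïve progenitor-like cells *Six6* stood at 365 CPM (UMIs of the gene per 1000000 UMIs of all genes, both summed over the cells) in control and 46.9 CPM in DKO, while *Six3* stood at 303 and 238 CPM. Cells were clustered without the members, and clusters were named from marker genes. Clusters 0, 1 and 6 were naïve progenitor-like, clusters 4 and 9 neurogenic progenitor-like, and clusters 5, 7 and 16 ganglion cell-like. Cluster 10, with 0 control cells and 664 DKO cells, was ectopic neuron-like. Scrublet called 87.8% of cluster 16 doublets. Levels were compared between cells for 1 gene at a time and not between genes, since tags at the 3′ end give no level per length.

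Across the 5 retinal classes of the control library, 6 of the 7 measured members differed at least 2-fold between their highest and lowest class, and *Kcnq1ot1* did not. The share of all genes that differ this much was not taken, so the count shows no trait particular to the members. *Malat1* and *Meg3* were higher in all neuron classes than in both progenitor classes, *Snhg11* was highest in ganglion cells, and *Miat* was highest in the neurogenic progenitors between them.

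*Malat1*, the speckle RNA, stood at 11815 CPM (11780 to 11851) in naïve progenitor-like cells, 13401 CPM in neurogenic progenitor-like cells and 27213 CPM (27108 to 27318) in ganglion cell-like cells of control. The DKO levels of the same 3 classes were 12645, 17013 and 32702 CPM. Photoreceptor-like cells held the highest retinal level in both libraries, 29344 CPM in control and 37838 CPM in DKO. The order of the classes shared by both libraries was the same, from naïve progenitors over neurogenic progenitors, amacrine or horizontal cells and ganglion cells to photoreceptors, and the highest level was 2.48 times the lowest in control and 2.99 times in DKO.

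*Neat1*, the paraspeckle scaffold, was low in all retinal classes and higher outside the retina. It stood at 8.68 CPM (7.74 to 9.70) in naïve progenitor-like cells, 6.19 CPM in neurogenic progenitor-like cells and 4.51 CPM (3.26 to 6.08) in ganglion cell-like cells of control. The DKO levels of these classes were 8.99, 4.31 and 2.79 CPM. *Neat1* thus ran in the opposite direction to *Malat1* from progenitors to ganglion cells in both libraries. In control it passed the 2-fold mark through amacrine or horizontal cell-like cells, where 0 UMIs set a bound of at least 2.14-fold lower than in naïve cells. The unnamed cluster 3, which was led by the pigment gene *Pmel* and by *Trpm1* and *Gja1* and raised markers of more than 1 class, held 41.7 CPM of *Neat1* in control and 55.1 CPM in DKO.

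*Kcnq1ot1*, the imprinted antisense RNA, was nearly even over the retina. It stood at 927 CPM (917 to 937) in naïve, 941 CPM in neurogenic, 814 CPM in ganglion, 962 CPM in amacrine or horizontal and 1281 CPM (1182 to 1385) in photoreceptor-like cells of control. The highest of these levels was 1.57 times the lowest, and the intervals of naïve and neurogenic cells overlapped. In DKO, ectopic neuron-like cells were lowest with 599 CPM and photoreceptor-like cells highest with 1135 CPM. When cells were thinned to 2000 UMIs, 74.3% of naïve progenitor-like control cells and 71.7% of naïve progenitor-like DKO cells held a *Kcnq1ot1* UMI, against 6.28% and 4.01% of red blood cell-like cells.

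*Meg3*, the first of the 3 RNAs of the *Dlk1*-*Dio3* cluster listed here, was higher in neurons than in progenitors. Control cells held 86.9 CPM (83.9 to 90.03) in naïve progenitor-like cells, 42.7 CPM (38.9 to 46.9) in neurogenic progenitor-like cells and 446 CPM (432 to 459) in ganglion cell-like cells. *Meg3* was thus lowest in the neurogenic progenitors of control and 10.4 times as high in ganglion cells. Within the ganglion class the level was 279 CPM in control cells of cluster 5, which was led by *Isl1* and *Pou4f2*, and 703 CPM in cluster 7, which was led by neurofilament and axon genes such as *Nefl*, *Sncg* and *Gap43*. Ectopic neuron-like cells, all of them DKO, held 857 CPM (825 to 891), the highest class level of *Meg3*. DKO cells of ganglion cluster 7 held as much, 861 CPM (841 to 882). After thinning, 65.3% of ectopic neuron-like cells and 67.6% of DKO cells of cluster 7 carried a *Meg3* UMI, against 1.05% of red blood cell-like DKO cells. *Mirg*, the miRNA host further along the cluster, gave few UMIs. It was counted 83 times in naïve, 11 times in neurogenic and 47 times in ganglion cell-like control cells, or at 2.33, 1.05 and 4.93 CPM, so that its order over these 3 classes in control was that of *Meg3*. In DKO *Meg3* was lowest in naïve cells (62.5 CPM, against 98.5 in neurogenic cells). *Mirg* stood at 1.21 CPM (0.61 to 2.17) in neurogenic cells, from 11 UMIs, and at 1.86 CPM (1.39 to 2.44) in naïve cells. These intervals overlapped, as did those of control (0.52 to 1.87 and 1.86 to 2.89), so the order of these classes for *Mirg* is not settled. In ectopic neuron-like cells it stood at 6.54 CPM (3.998 to 10.11).

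*Miat* marked the step from progenitor to neuron. Its level was 44.4 CPM (42.3 to 46.7) in naïve and 402 CPM (390 to 414) in neurogenic progenitor-like cells of control, and 45.1 and 420 CPM in DKO. In neurogenic cluster 4, which was led by *Atoh7* and *Srrm4*, it reached 516 CPM in control and 509 CPM in DKO. The other neurogenic cluster, 9, held 301 and 255 CPM. Ganglion cluster 5 lay between them with 383 and 315 CPM, and ganglion cluster 7 was lower with 118 and 88.8 CPM. After thinning, 52.1% of neurogenic progenitor-like control cells and 54.9% of the DKO cells held a *Miat* UMI, against 8.57% and 9.41% of naïve progenitor-like cells. Red blood cell-like cells, which should lack the RNA, held one in 1.74% and 2.61% of cells at medians of 8591 and 6461 UMIs before thinning.

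*Snhg11*, the snoRNA host, was highest in ganglion cells in both libraries. Ganglion cell-like cells held 230 UMIs in control and 439 in DKO, or 24.1 CPM (21.1 to 27.5) and 24.5 CPM (22.2 to 26.9). Naïve progenitor-like cells held 1.57 and 1.22 CPM, and amacrine or horizontal cell-like control cells held 0 UMIs. Cluster 7 stood at 47.7 CPM in control and 41.7 CPM in DKO, against 9.57 and 9.86 CPM in cluster 5.

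**Figure D1:**
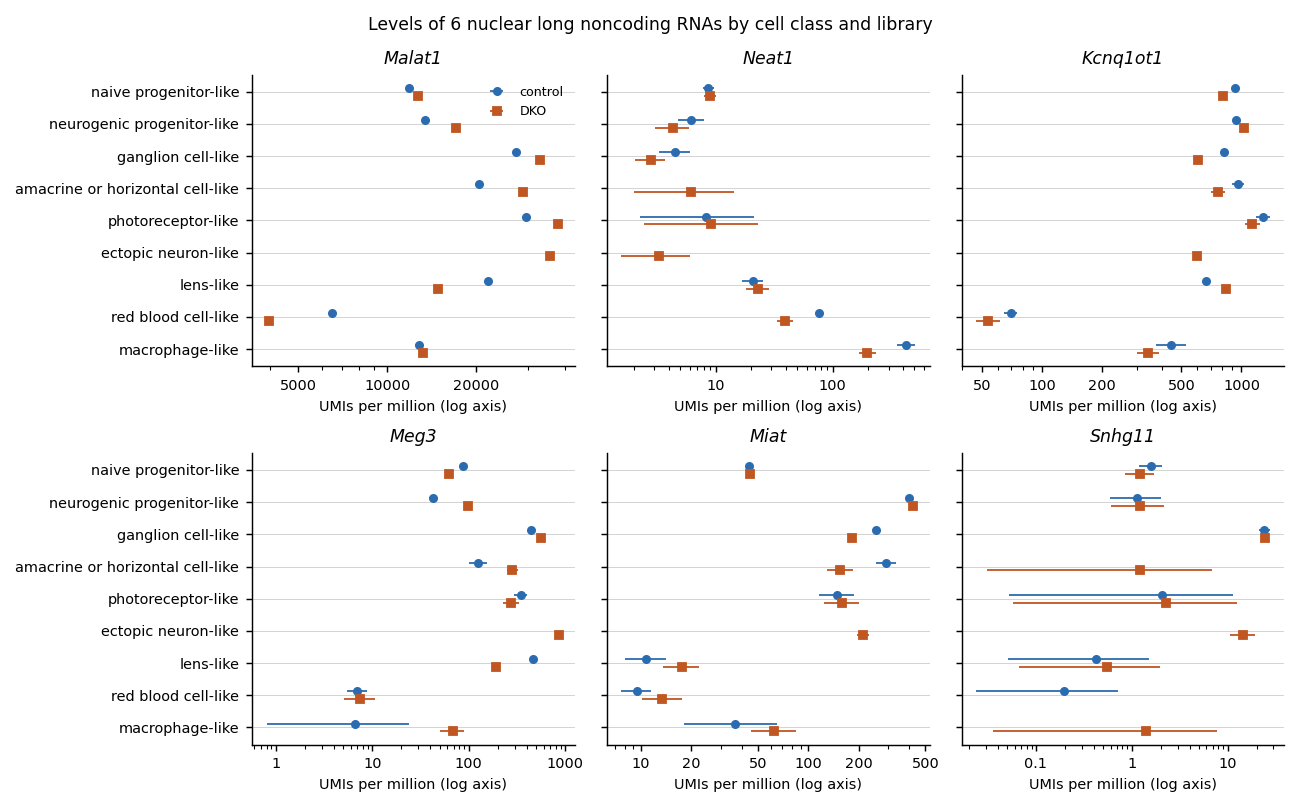
Level of 6 members (UMIs per 1000000, log axis) in each cell class for control (circles) and DKO (squares), with 95% exact Poisson intervals and classes with 0 UMIs left out. *Malat1* runs from 11815 CPM in naïve to 29344 CPM in photoreceptor-like control cells, *Kcnq1ot1* stays between 814 and 1281 CPM over the retinal classes of control, and *Neat1*, per UMIs of all genes, is highest in macrophage-like cells.

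**Figure D2:**
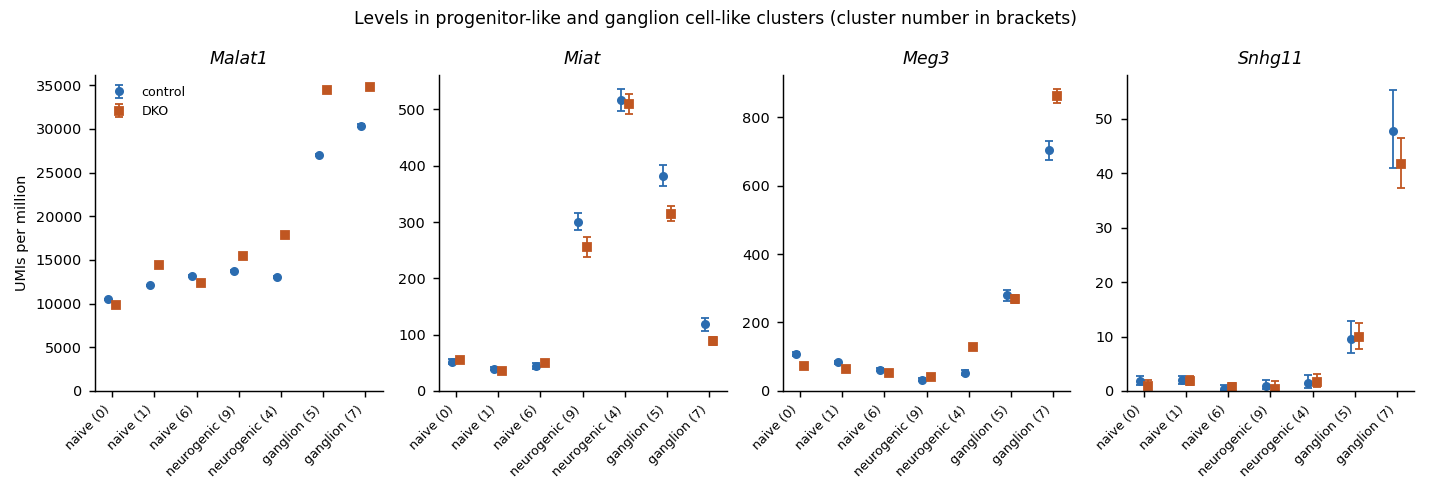
Level of *Malat1*, *Miat*, *Meg3* and *Snhg11* (UMIs per 1000000) in the naïve, neurogenic and ganglion cell-like clusters other than cluster 16, with the cluster number in brackets and 95% exact Poisson intervals. *Miat* peaks in cluster 4 at 516 CPM in control and 509 CPM in DKO, where *Meg3* is at 53.6 and 129 CPM, and *Meg3* and *Snhg11* are highest in cluster 7.

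Outside the retina the members split by tissue. Lens-like cells held *Malat1* at 21821 CPM in control and 14808 CPM in DKO, *Kcnq1ot1* at 661 and 841 CPM and *Meg3* at 464 and 192 CPM. *Miat* was low there, at 10.7 CPM (7.99 to 14.1) in control and 17.5 CPM from 64 UMIs in DKO. Per 1000000 UMIs of all genes, macrophage-like cells held the highest *Neat1* levels of all named classes, 424 CPM (354 to 505) from 128 UMIs in control and 198 CPM (167 to 233) from 142 UMIs in DKO.

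Red blood cell-like cells carried mostly hemoglobin UMIs, so their levels were also taken per 1000000 UMIs of other genes. Cluster 8, with the embryonic globins *Hba-x* and *Hbb-y*, then held 48784 units of *Malat1* in control and 37434 in DKO, and cluster 11, with the adult globin *Hbb-bs*, held 11664 and 9440. *Neat1* stood at 636 and 485 in cluster 8, above its level in macrophage-like cells, and at 195 and 51.1 in cluster 11. *Kcnq1ot1* stood at 51.2 and 59.3 in cluster 8 and at 92.9 and 153 in cluster 11, but at 902 and 739 in cluster 19, in which Scrublet called 54.9% of cells doublets. Embryonic globins mark the first, primitive lineage of red blood cells and adult globins the definitive lineage.

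The 3 genes whose levels followed each member most closely were taken over 17 sums, 1 for each class and library with at least 50 cells. The measure was Pearson's r of log2(CPM + 10) among 6102 genes, and sums of 1 library share its preparation and depth. *Kcnq1ot1* was followed by *Luc7l3*, *Pnisr* and *Sltm* with r from 0.985 to 0.987. Its red blood cell-like sums stood at 69.8 CPM in control and 53.8 CPM in DKO, and all its other sums at 341 CPM or more. The part of this gap in r was not tested. *Malat1* was followed by *Rnf14*, *Ubxn6* and *1500011B03Rik*, with 0.952 for the first. *Neat1* was followed by *Zc3hav1*, *Slc16a10* and *Vamp8* (0.949 for the first), and *Meg3* by *Snap47*, *Hist3h2ba* and *Hist3h2a* (0.955). *Miat* was followed by *Insm1*, a transcription factor of newborn neurons that also served as a marker for naming the neurogenic class, and by *Igfbp2* and *Srrm4*, a splicing regulator of neurons (0.955 for *Insm1*). The closest genes of *Snhg11* were *Mtus2*, *Cntn2* and *Akap7* (0.974), and those of *Mirg* were *Syt7*, *Tppp3* and *Ctnnd2* (0.851). Both of these members stayed under 50 CPM in all sums. Among the members, r was 0.885 for *Malat1* and *Meg3*, 0.744 for *Meg3* and *Mirg*, and -0.51 for the neighbours *Malat1* and *Neat1*. The red blood cell-like sums were taken per UMIs of all genes, hemoglobin included, and held *Malat1* at 6484 CPM in control and 3969 CPM in DKO. Per UMIs of other genes, control cells of cluster 8 were high in *Malat1* (48784) and *Neat1* (636) alike. The part of hemoglobin in r was not tested.

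Low-RNA cells were those with over 200 and up to 1200 genes and under 1% mitochondrial UMIs. They made up 1959 of the kept control cells (19.9%) and 1492 of the DKO cells (12.3%). Of these, 1021 and 517 carried at least 10% hemoglobin UMIs and were set apart as red blood cells, which left 938 control and 975 DKO cells with medians of 1060.5 and 1015 UMIs. They were compared with the 7155 control and 9755 DKO cells of over 1200 genes, called deeper, and with shallow cells, 489 in control and 725 in DKO, which had as few genes but at least 1% mitochondrial UMIs. The share of mitochondrial UMIs was used to choose the cells and is no result.

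The nuclear RNAs were low in these cells beyond the drop in total RNA, since levels are per 1000000 UMIs. *Malat1* stood at 3270 CPM (3166 to 3376) in low-RNA cells, 10216 CPM in shallow cells and 15065 CPM in deeper cells of control, and at 3576, 14149 and 20264 CPM in DKO. Low-RNA cells were below both other groups in each library, and the log2 ratio to deeper cells was -2.20 (-2.25 to -2.16) in control and -2.50 (-2.55 to -2.46) in DKO.

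*Kcnq1ot1* was lower still. The study had named this RNA among the negative markers of its retinal clusters with low RNA counts, from the same data. A low level of *Kcnq1ot1* in such cells was thus already reported. It was counted 37 times in low-RNA control cells where the level of the deeper cells would give 1042 UMIs, and 67 times in DKO where it would give 937. The levels were 32.4 CPM (22.8 to 44.6) in low-RNA, 346 CPM in shallow and 911 CPM in deeper cells of control, and 58.4, 536 and 817 CPM in DKO. The log2 ratio to deeper cells was -4.82 (-5.32 to -4.35) in control and -3.81 (-4.17 to -3.46) in DKO. By the less extreme of its 2 ratios *Kcnq1ot1* was number 4 from the bottom of 6580 genes with enough expected UMIs. *Meg3* was number 99, *Malat1* number 179 and *Miat* number 997.

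*Meg3* stood at 14.0 CPM in low-RNA and 166 CPM in deeper cells of control, and at 45.3 and 254 CPM in DKO (log2 ratios -3.57 and -2.48). *Miat* stood at 25.4 and 130 CPM in control and at 58.4 and 132 CPM in DKO (log2 ratios -2.36 and -1.17). *Snhg11*, *Neat1* and *Mirg* were expected fewer than 20 times in low-RNA cells of either library. *Snhg11* was counted 1 time against 5.30 expected in control and 0 times against 8.64 in DKO, which is at least 2.88-fold lower in DKO. *Neat1* was counted 8 times against 15.2 and 5 times against 18.4, and *Mirg* 0 times against 3.39 and 3 times against 3.09.

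With at least 20 expected UMIs, 4 of 4 members (*Malat1*, *Kcnq1ot1*, *Meg3* and *Miat*) were at least 2-fold lower in low-RNA cells in both libraries, where 24.9% of 6580 such genes were in control and 25.4% in DKO. Over all genes with at least 50 UMIs in both groups together, 5 of 7 members were in control, where 26.3% of genes were, and 6 of 7 in DKO, where 27.3% of genes were. The fifth was *Snhg11*, with 1 UMI in control and 0 in DKO, and the sixth, in DKO, was *Neat1* with 5 UMIs. Both reached 50 UMIs only through the deeper cells, and the control interval of *Snhg11* included 0 (-7.72 to 0.08). *Snhg11* and *Neat1* thus give no support beyond the 4 members with at least 20 expected UMIs. The median log2 ratio of all these genes was -0.35 in control and -0.34 in DKO. Against shallow cells, 4 of 4 members with enough UMIs were at least 2-fold lower in each library, where 6.04% of genes were in control and 16.6% in DKO. Their log2 ratios to shallow cells were -1.64 and -1.98 for *Malat1*, -3.42 and -3.20 for *Kcnq1ot1*, -2.55 and -2.25 for *Meg3*, and -2.19 and -1.69 for *Miat*.

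**Figure D3:**
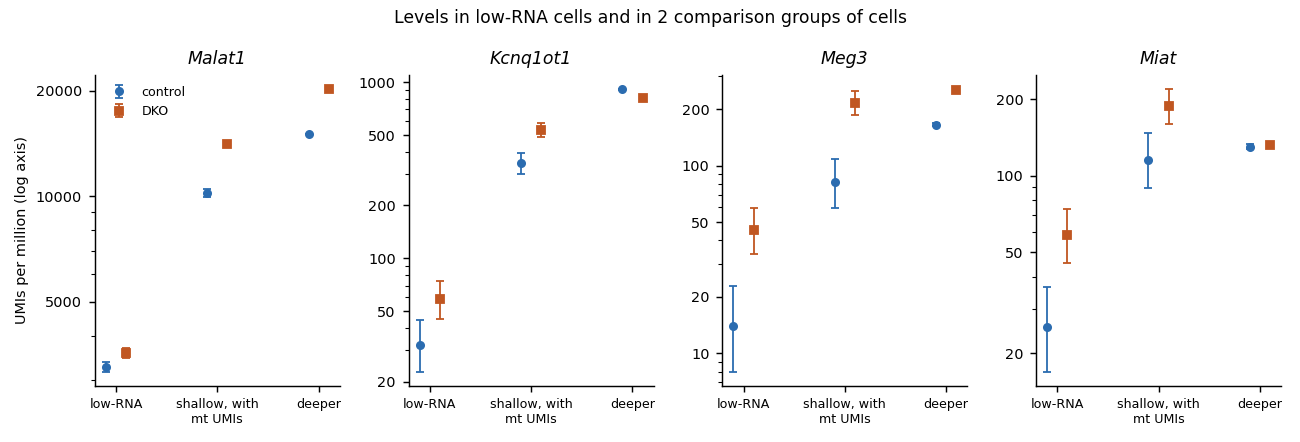
Level of 4 members (UMIs per 1000000, log axis) in low-RNA cells, shallow cells with mitochondrial UMIs and deeper cells, for control (circles) and DKO (squares) with 95% exact Poisson intervals. In each panel and each library the low-RNA cells are lowest, from 3270 against 15065 CPM for *Malat1* to 32.4 against 911 CPM for *Kcnq1ot1* in control.

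The members' UMIs were few in each low-RNA cell. *Malat1* had no UMI in 343 of 938 low-RNA cells in control (36.6%) and in 365 of 975 in DKO (37.4%), and its median was 1 UMI. The tenth of low-RNA cells with the most *Malat1* held 51.1% of its UMIs in control and 68.9% in DKO, against 60.4% and 46.8% in shallow cells and 29.5% and 25.5% in deeper cells. *Kcnq1ot1* was seen in 26 control and 28 DKO low-RNA cells, with at most 7 UMIs in 1 cell. When all cells were thinned to 500 UMIs, 1.39% of low-RNA control cells held a *Kcnq1ot1* UMI, against 12.5% of shallow and 33.5% of deeper cells, and the DKO shares were 1.95%, 17.2% and 30.9%.

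Among all cells of up to 1200 genes, levels followed the share of mitochondrial UMIs. *Kcnq1ot1* stood at 29.2 CPM (18.9 to 43.1) in control cells with under 0.5% mitochondrial UMIs, 41.7 CPM at 0.5 to 1%, 103 CPM at 1 to 2%, 468 CPM at 2 to 4% and 509 CPM (421 to 610) from 4 to 20%. In DKO the levels were 68.5, 28.0, 144, 552 and 698 CPM. *Malat1* ran from 2861 CPM in the first of these bins to 18296 CPM at 2 to 4% and 10830 CPM from 4 to 20% in control, and from 3146 to 14957 and 17223 CPM in DKO. A single control cell held 944 of the 2151 *Malat1* UMIs at 2 to 4%, and without it the level was 10705 CPM. The levels did not step at the 1% limit alone, since *Kcnq1ot1* was also higher at 2 to 4% than at 1 to 2% in both libraries.

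**Figure D4:**
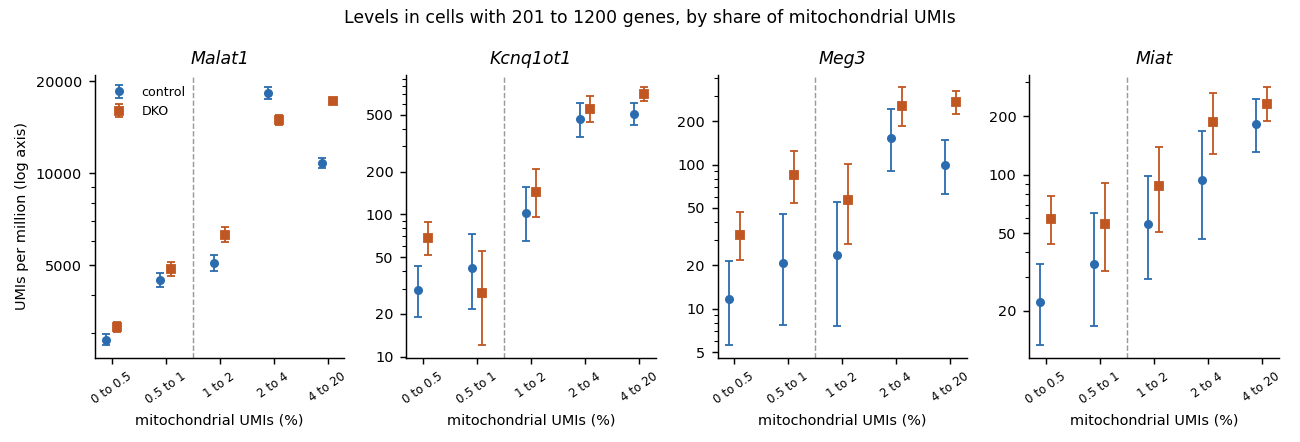
Level of 4 members (UMIs per 1000000, log axis) in cells of up to 1200 genes and under 10% hemoglobin UMIs by share of mitochondrial UMIs (%), for control (circles) and DKO (squares) with 95% exact Poisson intervals, where the dashed line marks the 1% limit. *Kcnq1ot1* is at 29.2 CPM in the first bin and 509 CPM in the last bin of control, and at 68.5 and 698 CPM in DKO.

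The low level of *Kcnq1ot1* and *Malat1* was also seen within low-RNA cells gated to 1 cell type. Cluster 2, which had too few markers raised for a name, held 77.4% of them in control and 82.1% in DKO. By marker UMIs per cell, 241 control and 207 DKO cells were gated as naïve progenitors, and 49.0% and 61.5% fell in no gate. Within naïve-gated cells, *Kcnq1ot1* was counted 13 times against 319 expected in control and 4 times against 218 in DKO, and *Malat1* 1180 times against 4074 and 463 against 3389. Of 100 lens-gated control cells 1 UMI of *Kcnq1ot1* was counted where 116 were expected. Not every value followed. In naïve-gated DKO cells *Miat* was counted 11 times against 14.0 expected, a log2 ratio of -0.35 (-1.36 to 0.50). In naïve-gated control cells it was counted 6 times against 16.4. The 30 ganglion-gated DKO cells held 14 UMIs of *Miat* where 5.56 were expected, and the 39 neurogenic-gated DKO cells held 4 UMIs of *Meg3* where 3.79 were expected and 371 of *Malat1* where 693 were.

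Genes for proteins of the same nuclear bodies were nearer to the median of all genes than the members were. Of 10 paraspeckle proteins 0 were at least 2-fold lower in low-RNA cells of either library, with a median log2 ratio of -0.10 in control and -0.04 in DKO. *Sfpq* was lowest at -0.59 and -0.53, and *Nono* stood at 0.19 and 0.41. Of 8 nuclear speckle proteins 0 were lower in control and 1 in DKO, *Srrm2* at -1.04, with medians of -0.51 and -0.42. Of the other long noncoding RNAs listed, 7 of 16 tested were lower in control and 7 of 19 in DKO, with medians of -0.57 and -0.59. *Mir17hg*, the host of a miRNA cluster, was lowest at -2.50 and -2.13, and *H19* stood at 0.60 and 0.85. Of 18 other imprinted genes 6 were lower in control and 5 in DKO, and of the 5 coding genes tested beside *Kcnq1ot1*, among them *Cdkn1c* and *Phlda2*, 0 were.

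Of 10 mitosis genes, 0 were at least 2-fold higher and 1 lower in low-RNA cells of control, with a median of 0.40, and 6 were higher and 1 lower in DKO, with a median of 1.07. Of 10 S phase genes, 0 were higher in control (median 0.28) and 3 in DKO (median 0.70). The share of all genes at least 2-fold higher in low-RNA cells was not taken, so these counts have no rate beside them.

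The 10 genes at the bottom of the ranking included, beside *Kcnq1ot1*, *St8sia2*, *4932438A13Rik*, *Chrna4*, *C130073E24Rik*, *Apc2*, *Chgb*, *Dner* and *Gm20342*, each counted at most 5 times in low-RNA cells of a library where *Kcnq1ot1* was counted 37 and 67 times. *Gm42418* and *AY036118*, which overlap ribosomal RNA sequence, were higher in low-RNA than in deeper cells, with log2 ratios of 2.44 and 2.76 in control and 2.39 and 2.62 in DKO. Against shallow cells of control their ratios were -0.31 and 0.09. Ribosomal protein genes took 29.1% of low-RNA UMIs in control and 27.3% in DKO, against 19.9% and 17.9% in deeper cells. *Actb*, a cytoskeletal gene of all cells, stood at -0.25 and -0.30 against deeper cells, whereas *Gapdh* stood at 0.51 and 0.76 and *Eef1a1* at 0.23 and 0.25. The part of these shifts in the members' values was not tested.

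Between the genotypes, most members with enough UMIs were within 1.5-fold in naïve, neurogenic, ganglion and photoreceptor-like cells, and 2 of 4 were in amacrine or horizontal cell-like cells. In naïve progenitor-like cells 0 of 7 members were past 1.5-fold, where 6.31% of 12643 genes were higher in DKO and 3.77% lower. *Malat1* had a log2 ratio of DKO over control of 0.10, which turned to -0.04 at a clustering resolution of 1, *Neat1* of 0.05 (-0.20 to 0.30), which turned to -0.49 in cells gated by markers, *Kcnq1ot1* of -0.19, *Miat* of 0.02 (-0.08 to 0.13) and *Meg3* of -0.48 (-0.56 to -0.39). Paraspeckle and speckle proteins were also within the fold, 0 of 10 and 0 of 8. Among genes beside *Meg3*, *Dlk1* stood at 1.34 and *Dio3* at -0.63. Of 18 other long noncoding RNAs tested 4 were higher and 2 lower past the fold, with *Pantr1* at 7.58 and *Mir9-3hg* at 5.07 the highest on that list. Ectopic neuron markers summed to 10.6 CPM in control and 62.3 CPM in DKO cells of this class.

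In neurogenic progenitor-like cells 1 of 5 members with enough UMIs was past 1.5-fold, where 7.76% of genes were higher and 5.5% lower. This was *Meg3*, with 449 UMIs at 42.7 CPM in control and 892 UMIs at 98.5 CPM in DKO, a log2 ratio of 1.20 (1.04 to 1.37). The 6 ectopic neuron markers moved with it, from 20.7 CPM in sum in control to 278 CPM in DKO, none of them at 0 in either library, and 10.7% and 44.7% of cells carried a UMI of them. Without those cells, a choice made after seeing the data, the ratio was 0.53, and with the libraries merged without integration it was 0.22, neither past the fold. Cluster 9 held 33.2 CPM of *Meg3* in control and 42.1 CPM in DKO, and cluster 4 held 53.6 and 129 CPM. *Miat*, the member that marks this class, stood at 0.06 (0.00 to 0.13), but at -0.27 with merged libraries and at -0.21 in cells gated by markers. *Kcnq1ot1* had a ratio of 0.13, which turned to -0.14 with merged libraries, and *Malat1* had one of 0.34. Of 10 S phase genes, 6 were past the fold on the lower side in DKO cells of this class, with a median of -0.60. The class was a different mixture in each library, with 797 control and 1256 DKO cells from cluster 4 and 620 and 439 from cluster 9, whose leading genes include the cell division genes *Mybl1* and *Hmmr*.

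In ganglion cell-like cells 2 of 7 members were past 1.5-fold, both lower in DKO, where 9.26% of genes were higher and 3.54% lower. *Neat1* had 43 UMIs in control and 50 in DKO cells (4.51 and 2.79 CPM, log2 ratio -0.69, -1.31 to -0.07), and *Mirg* had 47 and 58 UMIs (4.93 and 3.23 CPM, -0.61, -1.19 to -0.02). Both rest on about 50 UMIs in a library and neither kept the fold in all other settings. *Kcnq1ot1* stood at 814 and 607 CPM (-0.42, -0.47 to -0.38) and *Miat* at 252 and 183 CPM (-0.46), below the fold. *Miat* was past the fold at resolution 1 (-0.76) and with merged libraries (-0.84), as was *Meg3* with merged libraries (0.63 in place of 0.32). *Miat* was lower in DKO in clusters 5 and 7 alike. *Snhg11* had a ratio of 0.02 (-0.21 to 0.26). Ectopic neuron markers summed to 53.7 and 239 CPM in this class, and without cells that carry them the ratio of *Miat* was -0.87.

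In amacrine or horizontal cell-like cells, 129 in control and 192 in DKO, 2 of 4 members with enough UMIs were past 1.5-fold. *Meg3* was higher in DKO, with 93 UMIs at 125 CPM in control and 232 UMIs at 285 CPM in DKO (log2 ratio 1.18, 0.83 to 1.55), and *Miat* was lower, at 293 and 155 CPM (-0.92, -1.25 to -0.60). Ganglion cell markers summed to 2798 CPM in control and 3444 CPM in DKO cells of this class and ectopic neuron markers to 37.8 and 88.4 CPM, and their part in the ratios was not tested. In photoreceptor-like cells 0 of 4 members were past the fold. The shares of all genes past the fold were not taken for these 2 classes, so neither count has a rate beside it.

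**Figure D5:**
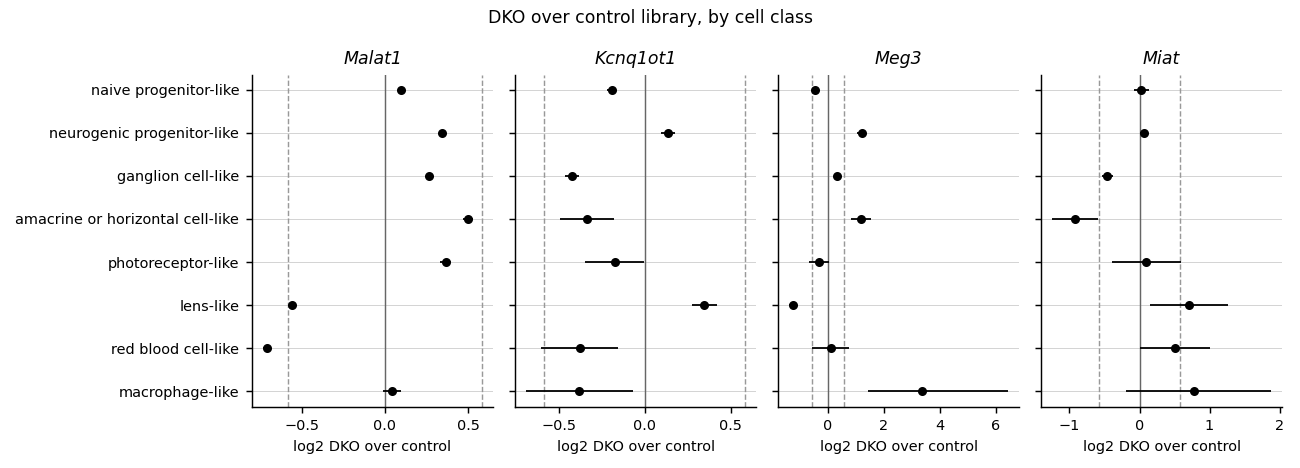
Log2 ratio of DKO over control for 4 members by cell class, with 95% exact binomial intervals and dashed lines at 1.5-fold. *Malat1* lies above 0 in the retinal classes and below 0 in lens and red blood cell-like cells, and *Meg3* is above the fold in neurogenic progenitor-like cells at 1.20 and in amacrine or horizontal cell-like cells at 1.18 and below it in lens-like cells at -1.27.

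Over single clusters with at least 50 cells in both libraries, *Malat1* was higher in DKO in 11 of 18 and lower in 7, with log2 ratios from -0.62 in lens cluster 12 to 0.70 in cluster 3. *Kcnq1ot1* was lower in 10 of 18, from -0.44 in cluster 5 to 1.35 in lens cluster 14. In red blood cell-like cells *Malat1* and *Neat1* were both past the fold on the lower side in DKO, at -0.71 and -0.98. The share of all genes past the fold was not taken for this class. The embryonic globin cluster 8 made up 813 of 1158 control cells of this class and 289 of 589 DKO cells, so the class held different mixtures of clusters in the 2 libraries. Within cluster 8 the ratios were -0.46 for *Malat1* and -0.47 for *Neat1*. Within cluster 11 they were -0.22 and -1.85 (-2.95 to -0.87), the latter from 44 UMIs in control and 11 in DKO. The part of the mixture in the class ratios was not tested.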

How the data were processed

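Single-cell RNA-seq was measured in 1 control and 1 DKO library of E13.5 eyecups. The authors mapped reads to mm10 with Cell Ranger 3.1.0 and deposited whole-number UMI counts per gene and cell, without normalization. The study's limits on cells were applied (over 200 and under 6000 genes, under 20% of UMIs mitochondrial). The libraries were integrated and clustered with Seurat 5.3.0 in R 4.3.3 (2000 variable genes without the members, 20 dimensions, resolution 0.5). A cluster was named from at least 3 detected markers with 75% of a class's markers above the other cells. The names are rebuilt and need not match those of the study. Doublets were called by Scrublet in scanpy 1.11.5 (300 control and 329 DKO cells) and kept. The automatic threshold of the DKO library was applied to both libraries.

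Levels are sums of UMIs over cells per 1000000 UMIs. Levels have exact Poisson intervals, and ratios and shares have exact binomial ones (95%, Python 3.11.15, numpy 2.4.6, scipy 1.17.1, pandas 2.3.3). The ratio code was tested on simulated data. A count of 0 in a ratio was set to 3 UMIs, which gives a bound that the upper end of the 95% interval can exceed. Genes with at least 50 UMIs over both groups were counted against 1.5-fold between genotypes and 2-fold for low-RNA cells. Shares of cells were taken after thinning each cell to 2000 UMIs, or 500 for low-RNA cells, with shallower cells left out.

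Named genes were all members, the 3 genes closest to each, the 10 lowest genes of the low-RNA comparison, and counts, medians and the genes at the ends of the lists. A gene among the 10 lowest is not reported here. *Gm42418*, *AY036118*, *Actb*, *Gapdh* and *Eef1a1* were named outside this rule. The members and lists were chosen with earlier results of these data known. Sequences and positions come from GENCODE vM21 on GRCm38 and hairpins from RefSeq. Genes whose symbols had no row, *Rian* among them, and reads were not analysed here. Figures were drawn with matplotlib 3.10.9.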

Additional observations from a re-analysis of the deposited data

Results flagged for a closer look

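*Meg3* and *Miat* were each past 1.5-fold on the higher side in at least 1 class and on the lower side in another, with intervals that left out 0 on both sides. The highest and the lowest such ratio of each are given here. The differences between classes were not tested, since each genotype had 1 library.

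*Meg3* had a log2 ratio of 3.36 (1.43 to 6.45) in macrophage-like cells, from 2 UMIs in control and 49 in DKO. Ectopic neuron markers in these cells summed to 3.32 CPM in control, with 5 of 6 markers at 0, and to 96.1 CPM in DKO, with 0 of 6 at 0. Ganglion cell markers summed to 179 and 727 CPM. Their part in the ratio was not tested.

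In lens-like cells *Meg3* had a log2 ratio of -1.27 (-1.40 to -1.15), from 2206 UMIs in control and 701 in DKO, whereas *Meg3* was higher in neurogenic progenitor-like DKO cells. Lens markers summed to 100086 CPM in control and 45401 CPM in DKO. In lens cluster 12 *Meg3* stood at 517 and 195 CPM, and in lens cluster 14 at 131 and 172 CPM, so the lower level in DKO was that of cluster 12.

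*Miat* had a log2 ratio of 0.71 (0.15 to 1.27) in lens-like cells, from 51 and 64 UMIs. In amacrine or horizontal cell-like cells its ratio was -0.92 (-1.25 to -0.60), from 217 and 126 UMIs. Neurogenic progenitor markers, the class in which *Miat* is highest, summed to 2071 CPM in control and 1049 CPM in DKO cells of the amacrine or horizontal class. Their part in the ratio was not tested.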

How the results depend on the processing

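No paired analysis was possible because there was 1 library of each genotype. Of the alternative values of these counts of members, 51 were close to the reported ones and 12 moved. The count past 1.5-fold in naïve progenitor-like cells (0 of 7) became 2 at resolution 1 (*Meg3* and *Snhg11*), 1 with libraries merged without integration (*Mirg*), 1 with cells gated by markers (*Snhg11*) and 1 with the mean over cells (*Mirg*), all lower in DKO. In neurogenic progenitor-like cells (1 of 5) it became 0 with merged libraries, 2 with the mean over cells (*Neat1* lower, *Meg3* higher) and 0 without cells that carry ectopic neuron markers. In ganglion cell-like cells (2 of 7) it became 1 without doublets (*Mirg*), 0 with the mean over cells, 0 with a pseudocount of 10 CPM and 1 without cells that carry ectopic neuron markers (*Miat*), but 3 with merged libraries (*Neat1* and *Miat* lower, *Meg3* higher), and at resolution 1 the 2 were *Neat1* and *Miat*. Leaving out marker cells was chosen after seeing the data. Of the low-RNA counts, DKO (6 of 7) became 3 in naïve-gated cells and control stayed between 4 and 6. The count of members that vary between classes stayed at 6 of 7 in the 8 alternatives run. Of single values past their fold, *Snhg11* in naïve-gated low-RNA cells of control turned to a log2 ratio of 0.71, from 1 UMI, and *Neat1* in DKO low-RNA cells turned to 1.03 with red blood cells kept in. Of the others, 301 were close to the reported value and 90 moved, and some ratios within the fold changed sign, among them *Miat* and *Kcnq1ot1* in neurogenic progenitor-like cells (-0.27 and -0.14 with merged libraries). The causes were not tested. Depth limits *Mirg*, *Snhg11* and *Neat1*, which rest on few UMIs in most classes.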
